A study of Mus musculus with 6 samples.

Results

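Liver RNA was examined for 10 genes of the methionine cycle and of transsulfuration: Mat1a, Mat2a, Gnmt, Ahcy, Bhmt, Bhmt2, Pemt, Nnmt, Cbs and Cth. Each gene was taken at the locus of the deposited table that carries its symbol and an Ensembl transcript, and all 10 were found among 42612 loci, of which 24822 carry an Ensembl transcript. The treated group was 3 libraries from livers of male ICR mice given sulfasalazine at 1000 mg/kg by oral gavage for 4 weeks. The control group was 3 libraries from male ICR mice given an equal volume of the vehicle, 0.1% DMSO, in which the drug had been dissolved. Both groups were dosed at 10 mL/kg, and the labels state an age of 8 weeks for both. ICR is an outbred stock, and sulfasalazine is an anti-inflammatory drug whose harm to the liver is the subject of the study. Lower and middle doses named in the labels were not analysed here. The animals were stated to be 10 per dose group, but the labels do not say that the numbered libraries came from separate animals, so p-values measure the spread between these samples, which may be technical. Whole liver was used, so fewer cells of a type and less RNA per cell cannot be told apart.

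The methionine cycle turns methionine into S-adenosylmethionine (SAM), the methyl donor of the cell, and the methyl transfer leaves S-adenosylhomocysteine, which is split into adenosine and homocysteine. Homocysteine is either methylated back to methionine or passed through transsulfuration to cysteine, the building block of glutathione and taurine. The liver carries most of this traffic in mammals, and hepatocytes hold a SAM synthetase of their own, MAT1A, beside the MAT2A form found in most tissues.

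The libraries were liver-like and 1 control library was rich in macrophage transcripts. The 5 hepatocyte markers summed to 19164 to 21558 FPKM (fragment number divided by transcript length and by the library total of mapped fragments) in sulfasalazine libraries and to 18593 to 23225 FPKM in control libraries. The 7 Kupffer cell and macrophage markers summed to 87.5 to 94.0 FPKM in sulfasalazine libraries and to 72.0, 49.9 and 230 FPKM in control libraries 1, 2 and 3. The extraction text in the labels also mentions an adipose type, and adipocyte markers, of which 4 of 5 had a locus, summed to at most 0.175 FPKM in sulfasalazine libraries and at most 0.012 FPKM in control libraries. The deposited values imply an estimated 13584400 to 20032400 fragments per library. Sulfasalazine library 2 and control library 1 stood apart in holding 6165 and 6057 loci without an annotated transcript at 1 FPKM or more, against 2809 to 3835 in the other 4.

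Levels of the 10 genes spanned 3 orders of magnitude, and the order by mean over the 6 libraries was Gnmt, Mat1a, Bhmt, Ahcy, Cth, Cbs, Bhmt2, Pemt, Mat2a and Nnmt. Gnmt averaged 545 FPKM, Mat1a 389 FPKM, Bhmt 245 FPKM and Ahcy 190 FPKM, and the ranges of neighbours among these 4 overlapped. The Ahcy values are those of its own locus, 37.7% to 41.2% of the FPKM summed with the near-copies described below. That sum, at 410 to 632 FPKM, lay above the highest Bhmt value of 389 FPKM in every library. Bhmt summed with its own near-copies was at 118 to 450 FPKM, so the ranges of the sums overlapped. Within each library the Ahcy sum was the higher. The place of Ahcy in this order therefore holds for its own locus only. Cth averaged 63.7 FPKM, below every Ahcy value and above every Cbs value. Cbs at 23.3 FPKM, Bhmt2 at 17.7 FPKM and Pemt at 15.9 FPKM followed, and the ranges of Cbs and Bhmt2, and of Bhmt2 and Pemt, overlapped. Mat2a averaged 13.3 FPKM, below every Pemt value, and Nnmt averaged 0.414 FPKM.

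**Figure D1:**
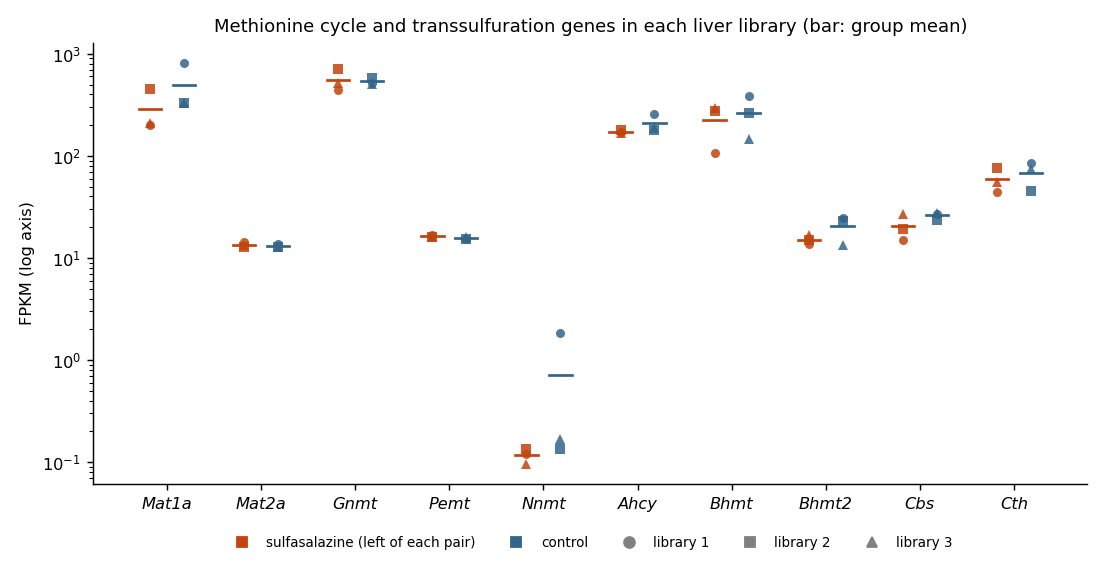
FPKM on a log axis for each of the 10 genes, with sulfasalazine libraries left of control libraries, marker shapes for library numbers and bars for group means. Mat2a and Pemt sit within narrow ranges of 12.7 to 14.3 and 15.4 to 16.7 FPKM, Mat1a and Bhmt spread widely, and Nnmt stays below 0.2 FPKM except at 1.84 FPKM in control library 1.

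None of the 9 tested genes changed past the threshold. By limma on log2(FPKM + 1), 0 of 9 were called higher and 0 of 9 lower at an adjusted p of 0.05 over 11969 tested loci, against 0.0167% of all tested loci called higher and 0% called lower. Members with an unadjusted p under 0.05 numbered 0 of 9, against 7.51% of tested loci, and the members' adjusted p lay between 0.783 and 0.986. Nnmt was not tested, because a locus had to reach 1 FPKM in at least 3 libraries. Fold changes were positive for 3 genes and negative for 6, against 49.6% of all tested loci positive. Their median was -0.26 on the log2(FPKM + 1) scale against -0.00206 over all tested loci. For 7 of the 9 genes the 95% interval of the difference left out both a halving and a doubling. Bhmt2, Cth and Cbs left out a halving narrowly, with lower ends of -0.97, -0.94 and -0.92. Leaving out 1 library could carry these past a halving. The lower end was -1.19 for Bhmt2 without sulfasalazine library 3, -1.20 for Cth without sulfasalazine library 2 and -1.12 for Cbs without control library 2. The wide intervals were those of Mat1a and Bhmt.

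**Figure D2:**
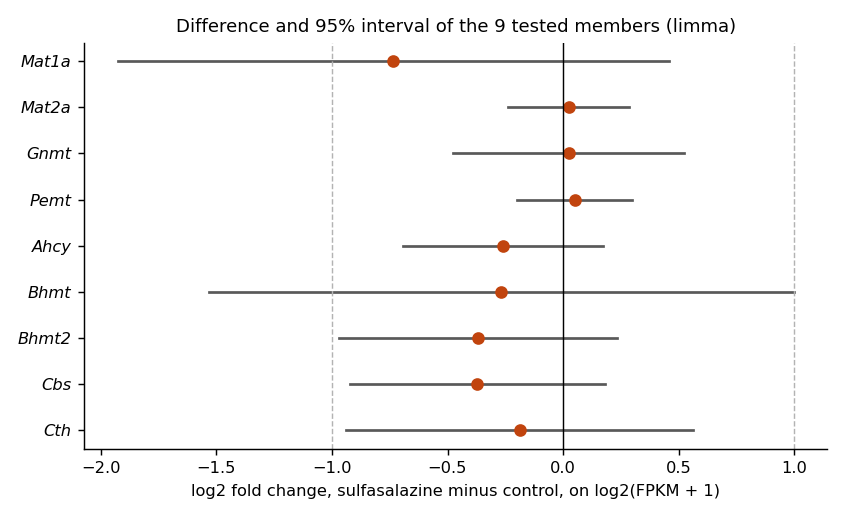
Log2 fold change of sulfasalazine minus control (points) with its 95% interval (lines) for the 9 tested genes, in the order of the cycle, with dashed lines at a halving and a doubling. Every interval crosses 0, and the intervals of Mat2a (-0.24 to 0.29) and Pemt (-0.20 to 0.30) are the narrow ones.

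The SAM synthetases differed in how far their libraries spread. Mat1a (chromosome 14, 41105035 to 41124412, plus strand, GRCm38) encodes the subunit of the hepatocyte enzymes and was at 199, 457 and 208 FPKM in sulfasalazine libraries and at 817, 326 and 328 FPKM in control libraries. Sulfasalazine libraries 1 and 3 lay below all controls, but sulfasalazine library 2 lay above control libraries 2 and 3, so the groups overlapped. Mat1a averaged 288 ± 146 FPKM in sulfasalazine libraries and 491 ± 283 FPKM in control libraries (SD, n = 3 each). For Mat1a the log2 fold change was -0.73 with a 95% interval of -1.93 to 0.46 (limma, adjusted p = 0.802). It was -0.29 without control library 1 and -1.12 without sulfasalazine library 2. Without both it was -0.68 with an interval of -1.13 to -0.23, which left out 0, but the adjusted p was 0.521 by limma and this setting was chosen after seeing the data.

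Mat2a (chromosome 6, 72432799 to 72439558, minus strand) encodes the form that extrahepatic tissues and dividing liver cells use. It was at 14.3, 12.7 and 13.4 FPKM in sulfasalazine libraries and at 13.8, 12.9 and 12.9 FPKM in control libraries. The groups overlapped, with a log2 fold change of 0.02 and an interval of -0.24 to 0.29 (limma, adjusted p = 0.973). Because FPKM is scaled to length, the pair can be set against each other within a library. The ratio of Mat1a to Mat2a FPKM was 14.0, 36.0 and 15.5 in sulfasalazine libraries and 59.1, 25.3 and 25.5 in control libraries. Mat1a exceeded Mat2a in all 6 libraries, and the ratio varied 4.23-fold, while Mat2a itself varied 1.12-fold and Mat1a 4.10-fold. This ratio does not depend on scaling between libraries and was not tested. The coding sequences are related but far from alike at the base level, with 73.4% identity over 1193 aligned columns and a longest shared run of 15 bases. None of the 3159 stretches of 50 bases in Mat1a transcripts occurred in another annotated gene. The coding window around that longest run is shown from GENCODE M21 transcripts, 5′ to 3′, positions 326 to 380 of Mat1a and 323 to 377 of Mat2a, with the 11 differing bases in capitals.
Mat1a: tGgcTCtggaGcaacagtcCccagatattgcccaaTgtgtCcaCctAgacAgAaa
Mat2a: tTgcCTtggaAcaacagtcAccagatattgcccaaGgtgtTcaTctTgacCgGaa

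Of the 3 methyltransferases, Gnmt and Pemt had fold changes near 0 and Nnmt was near the limit of detection in 5 of 6 libraries. Gnmt (chromosome 17, 46725664 to 46729168, minus strand), the glycine methyltransferase that disposes of excess SAM, was at 439, 703 and 523 FPKM in sulfasalazine libraries and at 520, 577 and 511 FPKM in control libraries. Sulfasalazine libraries held both the lowest and the highest value. Its log2 fold change was 0.03 with an interval of -0.47 to 0.53 (limma, adjusted p = 0.986), and it was -0.16 without sulfasalazine library 2 and 0.18 without sulfasalazine library 1. Pemt (chromosome 11, 59970614 to 60046489, minus strand) makes phosphatidylcholine from phosphatidylethanolamine with 3 methyl groups from SAM. It was at 16.7, 15.9 and 16.0 FPKM in sulfasalazine libraries and at 15.4, 15.4 and 16.0 FPKM in control libraries. The groups overlapped by 1 control library, the log2 fold change was 0.05, and the interval of -0.20 to 0.30 corresponds to 0.872 to 1.23 times the control level of FPKM + 1 (limma, adjusted p = 0.932).

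Nnmt (chromosome 9, 48591877 to 48605153, minus strand), which methylates nicotinamide with SAM, was at 0.121, 0.133 and 0.0953 FPKM in sulfasalazine libraries and at 1.84, 0.133 and 0.166 FPKM in control libraries. Only control library 1 reached 1 FPKM, and the other 5 values lay close together. With the worth of a fragment estimated from low loci, and the longest annotated transcript of 1043 bases, these values correspond to about 2.4, 1.9 and 1.8 fragments in sulfasalazine libraries and 33.6, 2.8 and 3.2 in control libraries. With so few fragments in 5 libraries and only control library 1 apart from them, no difference between groups was tested, and none is given. Both loci without an annotated transcript that the table labels Nnmt were also highest in control library 1, at 1.43 and 2.66 FPKM against at most 0.255 and 0.149 FPKM in the other 5.

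Ahcy was the 1 member whose groups did not overlap. Ahcy (chromosome 2, 155059310 to 155074497, minus strand) encodes S-adenosylhomocysteine hydrolase, which clears the product that inhibits methyltransferases. It was at 170, 178 and 166 FPKM in sulfasalazine libraries and at 257, 180 and 188 FPKM in control libraries. All 3 sulfasalazine values lay below the lowest control, by a margin of 178 against 180 FPKM, and 6.46% of all tested loci were separated in the same direction. Its difference on the log2 scale was -0.26 with an interval of -0.69 to 0.17 (limma, adjusted p = 0.812), and -0.10 without control library 1.

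The genome holds near-copies of Ahcy, and Gm4737 shares most of the Ahcy transcript. The coding sequence of the annotated gene Gm4737 on chromosome 16 differs from that of Ahcy at 4 of 1296 bases, and the longest run they share is 575 bases. Of the 2540 stretches of 50 bases in Ahcy transcripts, 75.6% also occurred in transcripts of other genes, 72.7% in Gm4737 and 33.3% in the processed pseudogene Gm9826. The 120 coding bases that hold the most differences, positions 355 to 474 of both, are shown 5′ to 3′ from GENCODE M21 transcripts because a read that covers neither differing base has the same letters in both genes. The 2 differing bases are in capitals.
Ahcy: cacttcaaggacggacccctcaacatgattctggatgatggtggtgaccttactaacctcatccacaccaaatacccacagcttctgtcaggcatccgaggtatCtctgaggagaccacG
Gm4737: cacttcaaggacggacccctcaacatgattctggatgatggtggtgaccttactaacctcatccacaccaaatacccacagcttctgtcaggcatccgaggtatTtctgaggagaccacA

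The deposited table gave the near-copy more than it gave Ahcy. Gm4737 was at 246, 290 and 239 FPKM in sulfasalazine libraries and at 369, 252 and 282 FPKM in control libraries, 1.40 to 1.63 times the Ahcy value in each library. The share of Ahcy in the sum of Ahcy, Gm4737 and Gm9826 was 40.5%, 37.7% and 40.5% in sulfasalazine libraries and 40.6%, 41.2% and 39.6% in control libraries. That share was nearly the same in every library, with its lowest value in sulfasalazine library 2. The summed FPKM was 419, 472 and 410 in sulfasalazine libraries and 632, 436 and 474 in control libraries. On the sum the groups overlapped, since sulfasalazine library 2 exceeded control library 2. Summed, the log2 fold change was -0.23 with an interval of -0.68 to 0.22 (limma, adjusted p = 0.841), an alternative chosen after seeing the data.

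**Figure D3:**
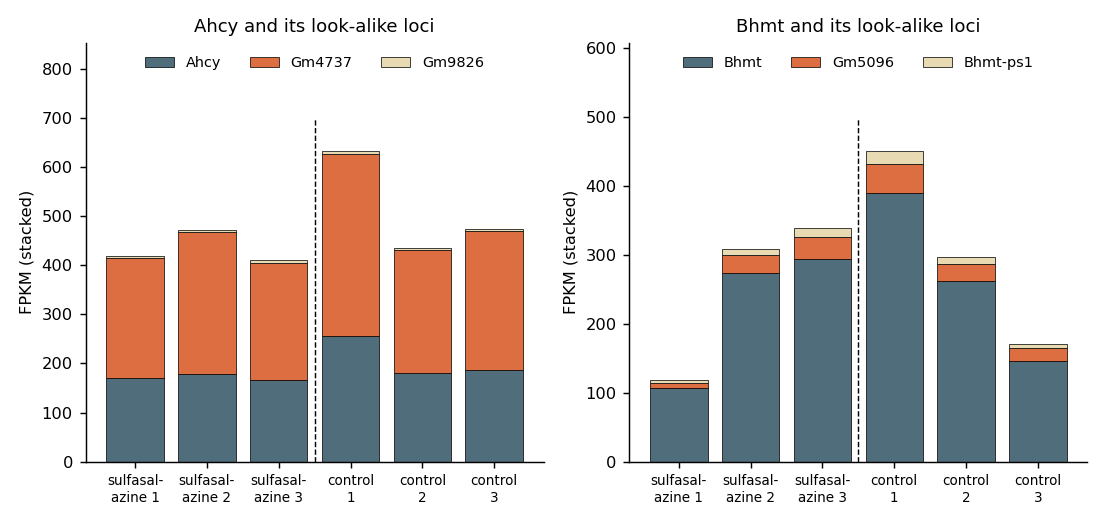
Stacked FPKM in each library for Ahcy with Gm4737 and Gm9826 (left) and for Bhmt with Gm5096 and Bhmt-ps1 (right), sulfasalazine libraries left of the dashed line. Gm4737 takes more FPKM than Ahcy in all 6 libraries, while Bhmt keeps 85.3% to 90.1% of its sum.

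Both remethylation enzymes among the members, Bhmt and Bhmt2, had negative fold changes within the spread between libraries. Mtr, a tested gene of the remethylation list below, had a positive log2 fold change of 0.16 (limma, adjusted p = 0.846). Bhmt (chromosome 13, 93616675 to 93637961, minus strand) encodes betaine-homocysteine methyltransferase, which returns homocysteine to methionine with a methyl group from betaine. It was at 106, 273 and 293 FPKM in sulfasalazine libraries and at 389, 262 and 146 FPKM in control libraries. The lowest value was in sulfasalazine library 1 and the highest in control library 1, and the groups overlapped. On the log2 scale Bhmt differed by -0.27 with an interval of -1.53 to 1.00 (limma, adjusted p = 0.93). Its sign turned to 0.20 without sulfasalazine library 1 and to 0.06 without control library 1, and it was -0.64 without control library 3, -0.53 without sulfasalazine library 3 and -0.48 without sulfasalazine library 2. Bhmt also has a near-copy, Gm5096, whose coding sequence differs at 4 of 1221 bases. Of Bhmt's 2441 stretches of 50 bases, 56.9% occurred in Gm5096 and 31.8% in the processed pseudogene Bhmt-ps1. Gm5096 was at 8.42, 26.0 and 32.8 FPKM in sulfasalazine libraries and at 42.3, 24.6 and 18.5 FPKM in control libraries, the same order of libraries as Bhmt. Bhmt took 90.1%, 88.6% and 86.6% of the sum in sulfasalazine libraries and 86.6%, 88.3% and 85.3% in control libraries. Summed, the log2 fold change was -0.29 (limma, adjusted p = 0.921).

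Bhmt2 (chromosome 13, 93655720 to 93674302, minus strand), a neighbouring paralog that methylates homocysteine from S-methylmethionine, was at 13.7, 14.8 and 16.6 FPKM in sulfasalazine libraries and at 24.6, 23.2 and 13.3 FPKM in control libraries. Control library 3 held the lowest value of all 6 and control libraries 1 and 2 the highest. For Bhmt2 the log2 fold change was -0.37 with an interval of -0.97 to 0.23 (limma, adjusted p = 0.805), and it was -0.64 without control library 3. The latter interval, -1.01 to -0.26, left out 0 (limma, adjusted p = 0.483), while leaving out any other single library gave an interval that held 0. Without control library 1 the Bhmt2 value was -0.22. Bhmt exceeded Bhmt2 in every library, by 7.76, 18.4 and 17.7 times in sulfasalazine libraries and by 15.9, 11.3 and 11.0 times in control libraries, a ratio that was not tested. Their coding sequences were 67.3% identical over 1222 aligned columns, with a longest shared run of 59 bases. That run with 20 bases on each side, positions 860 to 958 of Bhmt and 833 to 931 of Bhmt2, is shown 5′ to 3′ because a read within the shared run has the same letters in both genes, with the 4 differing bases in capitals.
Bhmt: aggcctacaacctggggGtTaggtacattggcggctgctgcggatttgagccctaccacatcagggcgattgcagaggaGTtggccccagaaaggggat
Bhmt2: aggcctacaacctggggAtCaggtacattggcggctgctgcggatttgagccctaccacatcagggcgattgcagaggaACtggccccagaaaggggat

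Both transsulfuration enzymes had negative fold changes within the spread of the libraries. Cbs (chromosome 17, 31608894 to 31637238, minus strand), cystathionine beta-synthase, commits homocysteine to cysteine. It was at 14.9, 19.4 and 27.2 FPKM in sulfasalazine libraries and at 27.1, 23.5 and 27.7 FPKM in control libraries. Sulfasalazine libraries 1 and 2 lay below all controls and sulfasalazine library 3 lay among them. Cbs averaged 20.5 ± 6.21 FPKM in sulfasalazine libraries and 26.1 ± 2.24 FPKM in control libraries (SD, n = 3 each). For Cbs the log2 fold change was -0.37 with an interval of -0.92 to 0.18 (limma, adjusted p = 0.783). It was -0.17 without sulfasalazine library 1 and -0.59 without sulfasalazine library 3. The latter interval, -1.04 to -0.14, left out 0 (limma, adjusted p = 0.698). Leaving out any other single library gave a Cbs interval that held 0. Cth (chromosome 3, 157894248 to 157925077, minus strand), cystathionine gamma-lyase, releases cysteine and also forms hydrogen sulfide. It was at 44.7, 76.9 and 55.9 FPKM in sulfasalazine libraries and at 85.9, 45.1 and 73.6 FPKM in control libraries, and the groups overlapped over most of their range. Its log2 fold change was -0.19 with an interval of -0.94 to 0.56 (limma, adjusted p = 0.911), -0.46 without control library 2 and 0.0009 without control library 1. It was -0.0065 and -0.39 without sulfasalazine libraries 1 and 2, and -0.11 without control library 3.

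The members differed from each other in how steady they were. The within-group SD of Pemt on the log2(FPKM + 1) scale was 0.03, at the 0.28th percentile of the 11969 tested loci, and that of Mat2a was 0.07, at the 4.08th percentile. The within-group SDs of Mat1a, at 0.72, and Bhmt, at 0.76, stood at the 91.2nd and 92.9th percentiles. Among the 1891 tested loci that averaged at least 10 FPKM the percentiles were 0.32 for Pemt, 3.65 for Mat2a, 89.5 for Mat1a and 90.4 for Bhmt. The coefficient of variation of Pemt over 6 libraries was 3.01%, below the 5.92% that counting error alone would give at its estimated 286 fragments per library. For Mat2a it was 4.72% against a counting error of 3.52%. The counting errors rest on estimated fragment numbers and the coefficients on 6 libraries. They therefore set no firm floor, and neither comparison was tested.

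One control library and 1 sulfasalazine library held most of the extremes. Control library 1 had the highest value of 6 of the 10 genes, namely Mat1a, Ahcy, Bhmt, Bhmt2, Nnmt and Cth, and the lowest of none. Sulfasalazine library 1 had the lowest value of 5, namely Mat1a, Gnmt, Bhmt, Cbs and Cth, and the highest of 2, Mat2a and Pemt. Relative to each gene's own mean on the log2 scale, the median over the 9 tested genes was 0.45 in control library 1, -0.33 in sulfasalazine library 1, and between -0.05 and 0.00 in the other 4 libraries. Markers of hepatocyte position also differed between libraries. The 5 pericentral markers summed to 1367, 2140 and 1710 FPKM in sulfasalazine libraries and to 1931, 1808 and 1472 FPKM in control libraries. The 5 periportal markers summed to 1513, 791 and 897 FPKM in sulfasalazine libraries and to 1097, 1129 and 1159 FPKM in control libraries. Sulfasalazine library 1 was lowest in the pericentral sum and highest in the periportal sum, but single markers did not all follow. Cyp2f2 gave 869 of the 1513 FPKM of that periportal sum, while Hal was at 30.7 FPKM in sulfasalazine library 1 and at 33.3 to 37.7 FPKM in control libraries. The pericentral markers Glul, Cyp2e1, Oat and Axin2 were each lowest in sulfasalazine library 1, at 54.7, 1285, 21.9 and 0.59 FPKM. Cyp2e1 thus gave 1285 of the 1367 FPKM of that pericentral sum. The remaining pericentral marker, Slc1a2, was at 4.80 FPKM in sulfasalazine library 1, above control libraries 2 and 3 at 3.72 and 3.21 FPKM. The part of marker levels in the members' values was not tested. Without control library 1 and sulfasalazine library 2, the 2 libraries rich in loci without an annotated transcript, 0 members were called. The log2 fold changes were then -0.68 for Mat1a, -0.13 for Ahcy, -0.15 for Bhmt, -0.21 for Bhmt2 and -0.18 for Gnmt, whose sign turned.

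**Figure D4:**
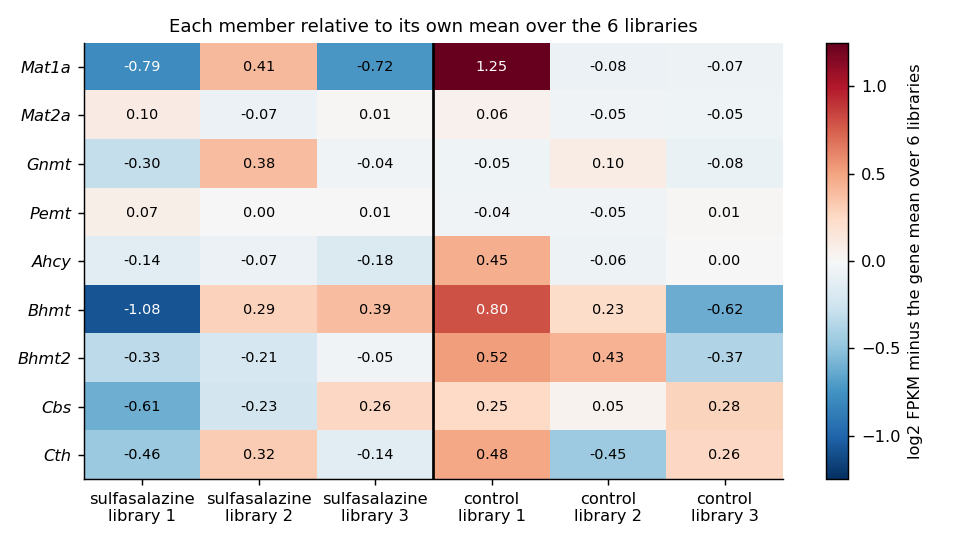
Log2 FPKM of each tested gene minus that gene's mean over 6 libraries (colour and number), with sulfasalazine libraries left of the line. Control library 1 is above the mean for 7 of the 9 genes, with 1.25 for Mat1a and 0.80 for Bhmt, and sulfasalazine library 1 is below it for 7, with -1.08 for Bhmt, while the rows of Mat2a and Pemt are close to 0.

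Genes of the routes that feed and drain the cycle gave no called change either. Of 68 genes on 8 lists, 64 had a locus, found by symbol or, for Sqor at a locus named Sqrdl, by Ensembl transcript. Of these loci, 3 (Chkb, Gclm and Mri1) also held another gene. Of the 64 genes, 57 were tested, and 0 were called higher and 0 lower by limma. An unadjusted p under 0.05 was reached by 7 of the 57, against 7.51% of all tested loci, and the adjusted p lay between 0.505 and 0.992. Fold changes were positive for 29 and negative for 28, against 49.6% of all tested loci positive, with a median of 0.02. Groups did not overlap for 5 genes that were higher and 4 that were lower in sulfasalazine libraries, against 6.71% and 6.46% of tested loci.

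Among the 4 tested partners of SAM synthesis and S-adenosylhomocysteine clearance, fold changes lay between -0.10 and 0.07 with a median of -0.06. Mat2b, the regulatory subunit of MAT2A, was at 3.62, 2.92 and 3.23 FPKM in sulfasalazine libraries and at 3.71, 3.32 and 3.62 FPKM in control libraries. Ahcyl1, an AHCY-like protein, was at 8.78, 8.60 and 9.18 FPKM in sulfasalazine libraries and at 8.74, 9.36 and 10.1 FPKM in control libraries. Adk, the kinase that removes adenosine, averaged 11.7 ± 1.13 FPKM in sulfasalazine libraries and 11.1 ± 1.08 FPKM in control libraries (SD, n = 3 each, here and for the means below). The groups of all 3 overlapped.

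The 8 tested genes of remethylation and betaine supply split evenly, with 4 positive and 4 negative and a median of 0.05. Chdh, choline dehydrogenase, the first step from choline to betaine, was at 16.2, 15.6 and 14.0 FPKM in sulfasalazine libraries and at 11.6, 9.73 and 13.0 FPKM in control libraries. Its groups did not overlap, and the log2 difference was 0.39 (limma, SE 0.14, adjusted p = 0.622). Aldh7a1, which completes betaine synthesis, was at 39.5 ± 3.66 FPKM in sulfasalazine libraries and 34.1 ± 5.75 FPKM in control libraries. Sardh, sarcosine dehydrogenase, which recovers the product of GNMT, was at 88.5 ± 22.9 FPKM in sulfasalazine libraries and 88.2 ± 5.20 FPKM in control libraries.

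The 10 other SAM-dependent methyltransferases had a median of -0.12, with 4 positive and 6 negative. Tpmt, which methylates thiopurine drugs, was at 3.59, 6.47 and 6.70 FPKM in sulfasalazine libraries and at 2.55, 3.49 and 3.54 FPKM in control libraries (limma, log2 fold change 0.62, adjusted p = 0.637). Inmt, an indolethylamine methyltransferase, was at 64.8, 86.0 and 42.4 FPKM in sulfasalazine libraries and at 93.8, 103 and 84.7 FPKM in control libraries. Its groups overlapped (limma, log2 fold change -0.59, adjusted p = 0.711), and the value was -0.32 without sulfasalazine library 3.

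Downstream of cysteine, the 8 tested genes of catabolism, taurine and hydrogen sulfide ranged from -1.69 to 0.81 with a median of 0.10. Got1, the cytosolic aspartate aminotransferase, which also deaminates cysteine, was at 21.0, 29.6 and 33.0 FPKM in sulfasalazine libraries and at 144, 43.3 and 63.6 FPKM in control libraries. All sulfasalazine values lay below the controls, and the log2 difference was -1.39 (limma, SE 0.45, adjusted p = 0.571). It was -0.91 without control library 1. Tst, the mitochondrial thiosulfate sulfurtransferase rhodanese, was at 28.6, 41.8 and 3.63 FPKM in sulfasalazine libraries and at 68.8, 67.9 and 39.6 FPKM in control libraries. Its groups overlapped, and the log2 fold change of -1.69 (limma, adjusted p = 0.729) was -0.70 without sulfasalazine library 3. Csad, the sulfinate decarboxylase of taurine synthesis, was at 87.1, 80.5 and 53.8 FPKM in sulfasalazine libraries and at 24.5, 72.6 and 38.1 FPKM in control libraries (limma, log2 fold change 0.81, adjusted p = 0.735). It was 0.45 without control library 1 and 1.22 without control library 2. Cdo1, cysteine dioxygenase, was the abundant gene of the list, at 381 ± 178 FPKM in sulfasalazine libraries and 312 ± 111 FPKM in control libraries.

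Glutathione synthesis showed no called gene among 5 tested, with a median of 0.12. Gclc, the catalytic subunit of glutamate-cysteine ligase, was at 82.5 ± 8.87 FPKM in sulfasalazine libraries and 73.3 ± 32.8 FPKM in control libraries. Gclm, its modifier subunit, was at 23.5 ± 8.72 FPKM in sulfasalazine libraries and 20.4 ± 8.34 FPKM in control libraries, at a locus that also holds Gm6061. Gss, glutathione synthetase, was at 5.89 ± 0.718 FPKM in sulfasalazine libraries and 5.37 ± 0.796 FPKM in control libraries. The groups of all 3 genes overlapped.

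The 8 tested genes of methionine salvage and polyamine synthesis, which recover methionine from SAM used for spermidine, had a median of 0.00. Srm, spermidine synthase, was at 3.65, 4.99 and 3.43 FPKM in sulfasalazine libraries and at 6.17, 5.17 and 5.81 FPKM in control libraries, without overlap (limma, log2 fold change -0.43, adjusted p = 0.600). Mtap, the phosphorylase that opens salvage, was at 4.77, 4.24 and 3.92 FPKM in sulfasalazine libraries and at 2.73, 3.11 and 3.82 FPKM in control libraries, also without overlap (limma, log2 fold change 0.34, adjusted p = 0.648). Amd1, which decarboxylates SAM for polyamines, was at 4.27 ± 1.59 FPKM in sulfasalazine libraries and 5.45 ± 0.517 FPKM in control libraries. Adi1, a dioxygenase of the salvage route, was at 26.0, 10.5 and 10.3 FPKM in sulfasalazine libraries and at 8.75, 11.8 and 22.2 FPKM in control libraries, with overlap.

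The CDP-choline route supplies phosphatidylcholine beside PEMT. Its list, which also holds ethanolamine genes, had 5 positive and 3 negative fold changes among 8 tested and a median of 0.18. The counts and median include Etnk1 (0.18), Etnk2 (-0.34) and Pcyt2 (-0.04) of CDP-ethanolamine synthesis, so they are not those of the CDP-choline genes alone. Chkb, a choline kinase, was at 6.15, 7.13 and 5.02 FPKM in sulfasalazine libraries and at 4.44, 3.28 and 3.97 FPKM in control libraries, without overlap. This was a log2 difference of 0.53 (limma, SE 0.16, adjusted p = 0.505), at a locus that pools the neighbouring Cpt1b. Cept1, a choline and ethanolamine phosphotransferase, was at 8.67, 9.96 and 9.54 FPKM in sulfasalazine libraries and at 5.45, 7.74 and 7.93 FPKM in control libraries, without overlap (limma, log2 fold change 0.38, adjusted p = 0.676). It was 0.23 without control library 1. Chpt1, a cholinephosphotransferase, was at 7.68 ± 0.965 FPKM in sulfasalazine libraries and 6.60 ± 0.977 FPKM in control libraries. Pcyt2, of the parallel CDP-ethanolamine route, was at 44.4 ± 4.34 FPKM in sulfasalazine libraries and 45.5 ± 0.915 FPKM in control libraries.

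Genes of nicotinamide and NAD metabolism, the context of NNMT, had a median of -0.02 over 6 tested. Aox1, an aldehyde oxidase that oxidises methylated nicotinamide, was at 9.30, 13.8 and 11.8 FPKM in sulfasalazine libraries and at 5.56, 11.2 and 3.59 FPKM in control libraries (limma, log2 fold change 0.80, adjusted p = 0.711). It was 0.48 without control library 3. Its relative Aox3 was at 48.8 ± 9.87 FPKM in sulfasalazine libraries and 58.4 ± 11.9 FPKM in control libraries. Nadsyn1, NAD synthetase, was at 4.63 ± 0.202 FPKM in sulfasalazine libraries and 4.86 ± 0.360 FPKM in control libraries.

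**Figure D5:**
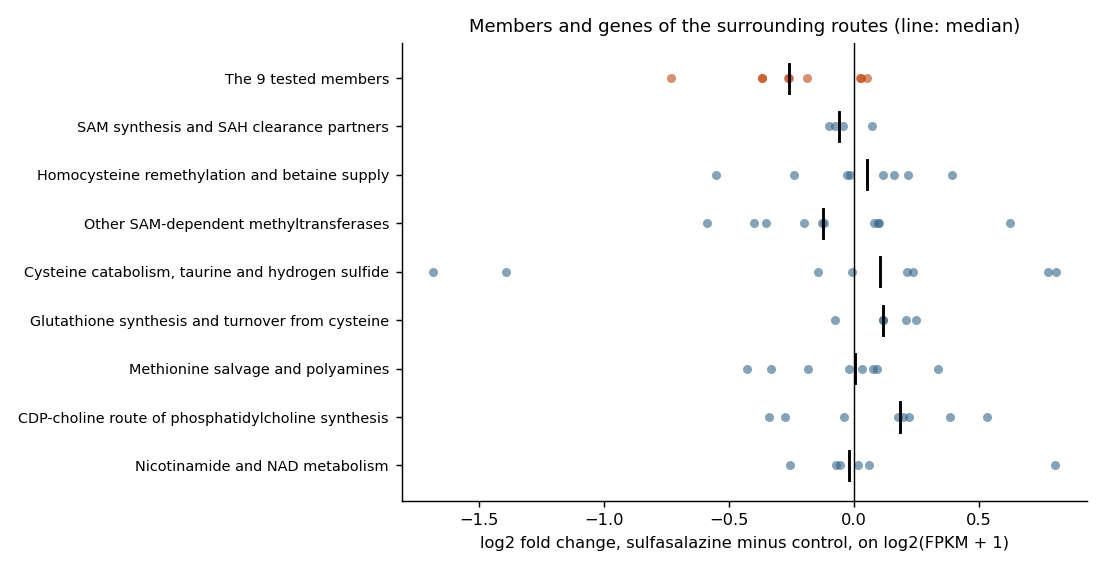
Log2 fold change of sulfasalazine minus control for the 9 tested members and for the 57 tested genes of 8 surrounding lists (points), with the median of each row (line). Medians lie between -0.26 for the members and 0.18 for the CDP-choline list, which includes ethanolamine genes, and no point shown passed the adjusted threshold.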

How the data were processed

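The authors' deposited table gives FPKM per locus and library, per the file headers. Per the submitters' processing notes, the tools were StringTie, Bowtie2, cutadapt and FastQC, without versions, on GRCm38.p5. Per the labels' protocols, ribosomal RNA was depleted. Among low values of loci with 1 annotated transcript, FPKM times length clustered at multiples of a fixed spacing in each library (35.0% to 43.1% lay within 0.05 of a multiple, where even spread gives 10%). Taking 2 spacings as 1 fragment implies 13584400 to 20032400 fragments per library. Fragment numbers given for a gene are estimates from this and the longest annotated transcript, and counting error covers counting only.

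A locus was tested where 3 or more of the 6 libraries reached 1 FPKM, which left 11969 loci. The test was limma (version 3.58.1, R 4.3.3) on log2(FPKM + 1), which understates the change of low genes, with prior variance following mean level and p adjusted by Benjamini-Hochberg at 0.05 over all tested loci. Intervals are 95% limma intervals. The procedure was tested on simulated data. Gene names, coordinates and sequences come from GENCODE M21 on GRCm38. Pisd, Nmnat3 and Naprt lie in loci named for other genes and were not used here, and no locus was found for Ado. Members, lists and tests were chosen with earlier results of these data known. Named genes are all members and, of each list, the 3 with the smallest unadjusted p and the most abundant. Some of these are not reported here. Other settings varied the pseudocount, the minimum FPKM, scaling, trend, choice of loci and libraries, and a replicate block. Plots used Python 3.11.15 and matplotlib 3.10.9.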

Additional observations from a re-analysis of the deposited data

Results flagged for a closer look

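A locus without an annotated transcript that the table labels Cth held signal outside the Cth locus used above. It was at 0, 1.03 and 1.39 FPKM in sulfasalazine libraries and at 0, 0 and 0 FPKM in control libraries, so 2 of 3 sulfasalazine libraries lay above the level of the controls. An exact 0 in such a table can be a failed estimate, and the difference was not tested. The locus is 1 of 8 such loci with a member's symbol, and others were highest in a control library. Those labelled Nnmt were highest in control library 1, and that labelled Mat1a was at 0.750 FPKM in control library 3 and at 0 elsewhere. Sulfasalazine library 2 was also rich in loci without an annotated transcript, with 6165 at 1 FPKM or more. The Cth locus itself was at 44.7, 76.9 and 55.9 FPKM in sulfasalazine libraries and at 85.9, 45.1 and 73.6 FPKM in control libraries.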

How the results depend on the processing

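Calls of 0 members and 0 list genes in either direction held under all alternatives run, with a smallest adjusted p by limma of 0.473 for a member and 0.29 for another named gene. Over all tested loci, calls of higher loci numbered 2 as reported, 1 at either smaller pseudocount (0.1, 0.01), 0 unfiltered, 1 at a 0.1 FPKM minimum, 6 at 5 FPKM, 23 without the trend, 9 over loci with an Ensembl transcript, 7 with FPKM summed per symbol, and 0 without control library 1 and sulfasalazine library 2 (chosen after seeing the data). The 0 called lower became 1 with the 5 FPKM minimum, 22 without the trend and 3 over loci with an Ensembl transcript. Leaving out each library gave 1 to 9 higher (1 to 8 with the tested loci kept) and 0 to 6 lower. The cause was not tested.

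Signs turned for 14 of 218 values of members and 18 of 668 of other named genes, none past the threshold. Mat2a was -0.0090 with quantile normalization. Without control library 1 and sulfasalazine library 2, Gnmt was -0.18, Adk -0.0675 and Cdo1 -0.25. Leaving out each library, log2 fold changes lay between -0.0148 and 0.0646 for Mat2a, -0.16 and 0.18 for Gnmt (-0.0077 without control library 3), -0.64 and 0.20 for Bhmt (0.0635 without control library 1), -0.46 and 0.0009 for Cth, -0.0006 and 0.13 for Adk, -0.21 and 0.16 for Sardh (0.0059 without control library 1), -0.11 and 0.59 for Cdo1, -0.12 and 0.54 for Gclm, -0.33 and 0.44 for Adi1 (-0.1855 without control library 1), and -0.12 and 0.0014 for Pcyt2. Under a replicate block 0 loci were called higher, 0 lower and 0 members. Same-numbered libraries did not deviate together (correlations of 0.00967, -0.0668 and -0.0222 across 11969 loci), and the labels do not say that numbers pair them.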

Other observations

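The table's own annotation column assigns 27 loci to cysteine and methionine metabolism, 6 of them members, and 24 were tested. This list was taken up after the data were seen. By limma 0 were called higher and 0 lower, and the smallest adjusted p was 0.494. An unadjusted limma p under 0.05 was reached by 4 of 24, against 7.51% of all tested loci. These were Dnmt3b and Got1, Mtap and Srm, the last 3 already counted among the 7 of 57 above. The list shares most of its loci with the members and lists above, so its counts repeat values already given. Of the fold changes 9 were positive and 15 negative, against 49.6% of all tested loci positive, with a median of -0.14. Of the 8 loci that are neither members, nor on the gene lists above, nor among the markers, 7 were tested. Sds, used above only as a periportal marker, was left out of those 8 and was tested. It was at 8.87, 6.79 and 9.58 FPKM in sulfasalazine libraries and at 16.0, 8.49 and 19.1 FPKM in control libraries. The Sds groups overlapped (limma, log2 fold change -0.67, adjusted p = 0.711). Dnmt3b, a de novo DNA methyltransferase that uses SAM, was at 0.854, 0.475 and 1.04 FPKM in sulfasalazine libraries and at 1.84, 1.49 and 1.87 FPKM in control libraries (limma, log2 fold change -0.62, adjusted p = 0.494). In the treated group only sulfasalazine library 3 reached 1 FPKM, so Dnmt3b met the filter through the control libraries alone. Its place among the tested loci, and its smallest adjusted p, therefore rest on a gene admitted by its high group. Tat, tyrosine aminotransferase, was at 293, 191 and 200 FPKM in sulfasalazine libraries and at 384, 187 and 362 FPKM in control libraries. Got2, the mitochondrial aspartate aminotransferase, was at 67.6, 72.4 and 71.0 FPKM in sulfasalazine libraries and at 28.0, 78.9 and 27.7 FPKM in control libraries, so its sulfasalazine values lay close together while the controls were far apart.

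Besides the loci used, 8 loci without an annotated transcript carry the symbol of a member, 6 symbols in all, and none exceeded 4.28 FPKM in any library.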
